A study of Mus musculus with 4 samples.

Results

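MHC class II antigen presentation was followed through 8 genes, taken by name. H2-Aa, H2-Ab1 and H2-Eb1 encode chains of the class II molecules that reach the cell surface. H2-DMa and H2-DMb1 encode the chains of H2-DM, Cd74 the invariant chain, Ctss the protease cathepsin S and Ciita the transactivator of the pathway. The array named 36691 genes, and 15 of its probes carried the names of these 8.

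In antigen-presenting cells, the class II alpha and beta chains assemble in the endoplasmic reticulum around the invariant chain, which blocks the peptide groove and directs the complex to endosomes. Endosomal proteases, cathepsin S foremost among them in many of these cells, trim the invariant chain down to a short peptide called CLIP, and H2-DM exchanges CLIP for peptides of taken-up proteins. CIITA does not bind DNA itself but is recruited by factors on the X and Y boxes of class II promoters, and interferon gamma induces it in many cell types. In the liver, Kupffer cells, dendritic cells, B cells and sinusoidal endothelial cells are the known carriers of class II, whereas resting hepatocytes carry little.

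The cells were primary hepatocytes of C57BL/6 mice, plated after collagenase perfusion and harvested 24 h after seeding. Drp1LiKO cells came from Alb-Cre Tg/+ Drp1 flox/flox mice, in which Cre recombines Dnm1l, which encodes Drp1, a driver of mitochondrial fission. The albumin promoter that drives Cre is active in hepatocytes and not in macrophages or endothelial cells. Control cells came from Drp1 flox/flox littermates, which the labels call wild-type and, for the palmitate array, Drp1flox, so both genotypes carry the floxed allele and differ in Cre. Each genotype was measured untreated and with 200 μM palmitate, a saturated fatty acid, with 1 array for each of the 4 groups. The methods name male mice, and the age of the hepatocyte donors and the number of animals behind each array were not given in the sources used here. The untreated control array shares its raw data with a sample that was also deposited elsewhere.

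No group had a replicate, so a difference between arrays had no spread between cultures to be set against. The 75th percentile of intensity lay between 424 and 542 over the 4 arrays, and between 44.7% and 51.1% of probes were well above background by the scanner software's own flag. The targeted gene Dnm1l read 2.42 and 2.43 log2 units on the control arrays, untreated and with palmitate, and 1.07 and 1.01 on the Drp1LiKO arrays. The 12 hepatocyte markers were well above background on all 4 arrays. Both untreated arrays lay on one slide and both palmitate arrays on another, so palmitate and slide cannot be told apart, while each slide held both genotypes.

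Promoter sequences from RefSeq (build GRCm38.p6) were found for 5 of the 8 genes. Those of H2-Aa, H2-DMb1, H2-Eb1 and Ctss are shown, since the first 3 place the same box beside genes whose array values differ, and Ctss has the largest genotype difference of the 8. Each is given 5′ to 3′ on the gene's own strand and ends on the base before the transcription start. Capitals mark a Y box core (TGATTGG), an X box core (CTAGNNAC) or the core of an interferon-stimulated response element (GAAA, any 2 bases, then GAAA).
H2-Aa, chr17:34287824-34287943, minus strand: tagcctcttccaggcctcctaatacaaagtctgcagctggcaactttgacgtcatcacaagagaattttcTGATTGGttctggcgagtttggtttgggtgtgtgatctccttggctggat
H2-DMb1, chr17:34153071-34153190, plus strand: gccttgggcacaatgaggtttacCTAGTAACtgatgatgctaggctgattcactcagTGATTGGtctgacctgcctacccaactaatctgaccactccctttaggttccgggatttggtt
H2-Eb1, chr17:34305747-34305866, plus strand: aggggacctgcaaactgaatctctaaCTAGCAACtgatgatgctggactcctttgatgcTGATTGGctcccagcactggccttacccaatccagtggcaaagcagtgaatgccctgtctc
Ctss, chr3:95526666-95526785, plus strand: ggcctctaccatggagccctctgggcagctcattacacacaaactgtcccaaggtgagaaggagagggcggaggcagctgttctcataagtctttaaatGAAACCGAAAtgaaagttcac

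The Y box core began 50 bases before the start in H2-Aa, 63 in H2-DMb1 and 61 in H2-Eb1. The X box core lay upstream of it in H2-DMb1 and H2-Eb1, at 97 and 94 bases before the start, and its letters were not met in the H2-Aa window. Ctss held the interferon element core 21 bases before its start and neither of the other motifs, and H2-DMa held none of the 3 at either of its starts. Searched on both strands over the 250 bases before each of 32851 mouse starts, the Y box core was present in 7.23% of promoters, the X box core in 8.88% and the interferon element core in 2.98%, so a match describes the letters of a window and no more.

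All values below are log2 intensities from which the 75th percentile of the array has been subtracted, so 0 is that percentile and 1 unit is a 2-fold difference. Each probe is compared with itself across arrays. Lists of cell type markers are also given as sums over their genes well above background on at least 1 array, in which bright probes weigh most. The ± value is the error that the scanner software gives a spot, carried to the difference of 2 arrays, and it covers the measurement of a spot and not how far animals or cultures vary. A gene was taken as higher or lower at a difference of at least 2-fold with its probe well above background on at least 1 of the compared arrays. Of the 15 probes, 10 were well above background on at least 1 array and 7 on all 4, and 7 of the 8 genes had a usable probe.

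**Figure D1:**
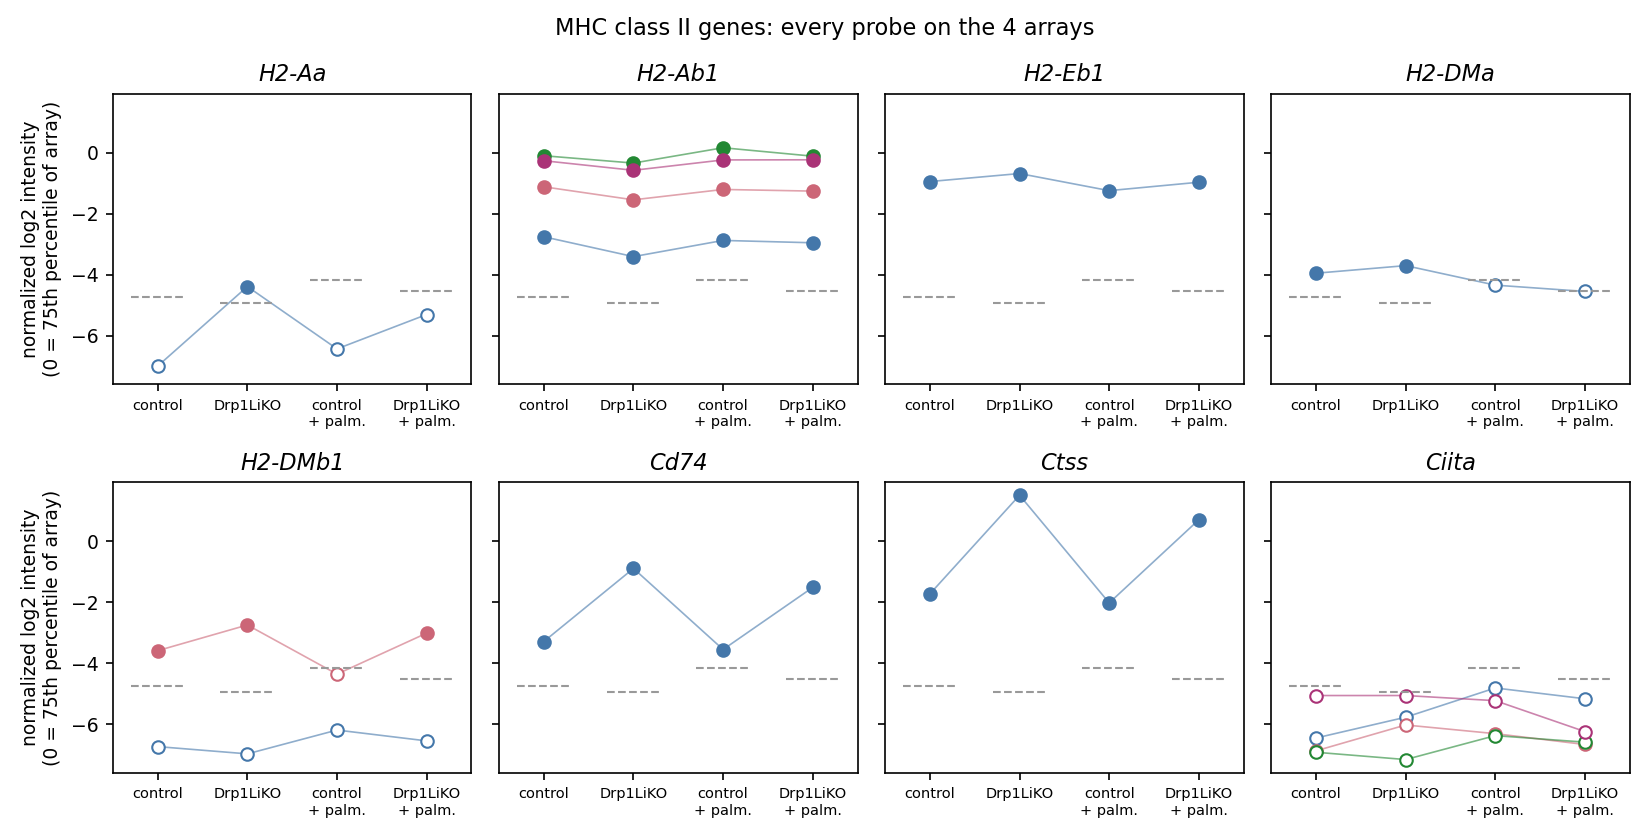
Normalized log2 intensity (y axis, 0 = 75th percentile of the array) of every probe of the 8 genes on the 4 arrays (x axis, palm. = 200 μM palmitate), with 1 line and colour per probe, filled points where the probe was well above background, open points where it was not, and grey dashes at the lowest probe well above background on that array. Ctss and Cd74 stand higher on both Drp1LiKO arrays than on both control arrays, H2-Ab1 and H2-Eb1 run nearly level, and all 4 Ciita probes are open on every array.

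Without palmitate, 3 of the 7 measured genes read at least 2-fold higher on the Drp1LiKO array than on the control array, namely Ctss, Cd74 and H2-Aa, and 0 at least 2-fold lower. H2-Aa was counted through the Drp1LiKO array alone, and the bound on its difference, 1.27-fold, does not reach 2-fold. Over the whole array 8.81% of 19802 measured genes were at least 2-fold higher and 5.56% at least 2-fold lower. The median log2 difference of the 7 genes was 0.84, against -0.02 over all genes, but it was 0.55 over the 6 genes measured on both arrays, 0.35 with dim values raised to the array's floor and 0.29 after normexp background correction. With palmitate, 3 of 5 measured genes were at least 2-fold higher on the Drp1LiKO array, namely Ctss, Cd74 and H2-DMb1, against 7.24% of 18820 genes (4.21% lower), with a median of 1.34 against -0.03 over all genes, which was 0.41 after normexp and 0.70 with no filter on dim probes. Where both arrays had to be well above background, the count was 2 in each condition, Ctss and Cd74, against 4.47% and 3.10% of genes.

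Ctss encodes cathepsin S, the cysteine protease that makes the late cuts in the invariant chain. Its probe (mm9 chr3:95360162-95360221) read -1.73 in control and 1.51 in Drp1LiKO cells when untreated, and -2.02 in control and 0.70 in Drp1LiKO cells with palmitate. Both Drp1LiKO arrays were above both control arrays, and the intensities behind these values were 147, 1543, 104 and 763 in the same order. The genotype difference was 3.23 ± 0.21 without palmitate, a 9.40-fold higher signal, and 2.73 ± 0.22 with palmitate, a 6.62-fold higher signal.

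Cd74, the invariant chain, was also higher in Drp1LiKO cells. Its probe on chromosome 18 (mm9 chr18:60972075-60972132) read -3.29 in control and -0.89 in Drp1LiKO cells when untreated, and -3.55 in control and -1.51 in Drp1LiKO cells with palmitate. It was well above background on all 4 arrays, at intensities of 49.7, 292, 36.2 and 164, and again both Drp1LiKO arrays were above both control arrays. The difference was 2.40 ± 0.24 without palmitate, 5.26-fold, and 2.04 ± 0.29 with palmitate, 4.10-fold.

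H2-Aa is the alpha chain of the I-A molecule and partner of H2-Ab1. Its probe (mm9 chr17:34421285-34421344, minus strand) read -6.99 in control and -4.39 in Drp1LiKO cells when untreated, and -6.43 in control and -5.30 in Drp1LiKO cells with palmitate. Only the untreated Drp1LiKO array was well above background, at an intensity of 26.0. The signal there was therefore at least 1.27-fold higher than on the untreated control array, the dim side being taken at the lowest level that the array still measured, while the measured values themselves differed by 2.61. With palmitate neither array was well above background, and no difference is given.

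H2-Ab1 encodes the beta chain that pairs with H2-Aa, and it was the only one of the 7 measured genes with a lower reading on the untreated Drp1LiKO array. The probe that represents it (mm9 chr17:34406296-34406355) read -0.10 in control and -0.34 in Drp1LiKO cells when untreated, and 0.16 in control and -0.11 in Drp1LiKO cells with palmitate. The arrays lay within 0.50 of each other, and the genotype difference was -0.24 ± 0.20 untreated and -0.28 ± 0.21 with palmitate. The other H2-Ab1 probes differed by -0.31, -0.43 and -0.65 without palmitate and by 0.00, -0.05 and -0.08 with it, so all 4 probes were lower on the untreated Drp1LiKO array and none by 2-fold.

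A pair of these H2-Ab1 probes overlaps and differs by a single substitution, T51C, with positions counted from 1 at the 5′ end of the representing probe. The 30-base stretches around it are shown because both versions of the site are printed on the array, with the differing base in capitals.
H2-Ab1, representing probe: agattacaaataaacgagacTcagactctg
H2-Ab1, overlapping probe: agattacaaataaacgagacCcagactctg
Their genotype differences were -0.24 and -0.31 untreated, and -0.28 and 0.00 with palmitate. The file headers give these positions on mm9, and whether a probe lies in a coding exon or a UTR was not given in the sources used here.

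H2-Eb1 encodes the beta chain of I-E. Its probe (mm9 chr17:34453075-34453134) read -0.94 in control and -0.68 in Drp1LiKO cells when untreated, and -1.24 in control and -0.97 in Drp1LiKO cells with palmitate. Each Drp1LiKO array was slightly above the control array of its slide, by 0.26 ± 0.21 and 0.28 ± 0.21. C57BL/6 mice are known to lack the alpha chain partner of H2-Eb1, and the probe of that gene, H2-Ea-ps, was not well above background on any array.

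H2-DMb1 is the beta chain of the peptide exchange factor H2-DM. Its brighter probe (mm9 chr17:34297109-34297168) read -3.59 in control and -2.74 in Drp1LiKO cells when untreated, and -4.36 in control and -3.01 in Drp1LiKO cells with palmitate. The Drp1LiKO arrays were again the higher ones, and the control palmitate array was not well above background. The difference was 0.84 ± 0.26 without palmitate, 1.79-fold. With palmitate it was at least 2.23-fold when the control array was taken at the lowest level it still measured, and 0.41 log2 units after normexp background correction. A further probe of the gene, some 7 kb away (mm9 chr17:34290109-34290168), was not well above background on any array.

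H2-DMa, the alpha chain of H2-DM, did not follow its partner. Its probe is 60 bases long but spans mm9 chr17:34274300-34274863, so it bridges bases that lie apart in the genome. It read -3.95 on the control array and -3.70 on the Drp1LiKO array, a difference of 0.25 ± 0.30. The palmitate arrays, at -4.34 and -4.55, were not well above background, and no genotype difference is given there.

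Ciita encodes the transactivator on which class II transcription depends. It had 4 probes, and 0 of them was well above background on any of the 4 arrays. Their readings lay between -7.16 and -4.81, at intensities of 3.81 to 16.3. At this signal the array gives only an upper bound on Ciita in any group, and a difference between groups was not detectable.

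**Figure D2:**
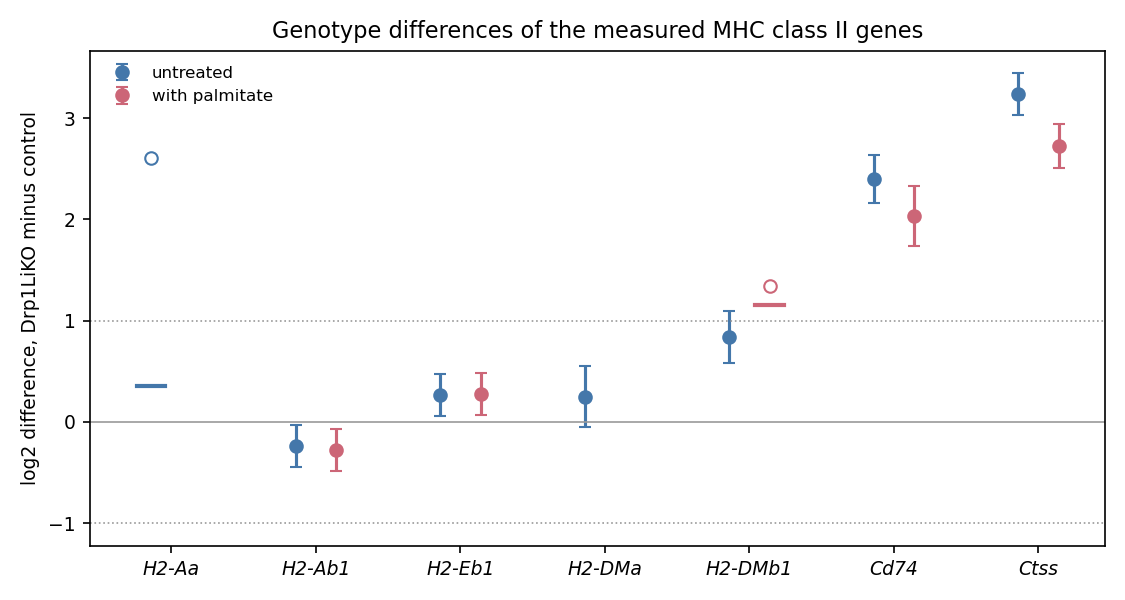
Log2 difference, Drp1LiKO minus control (y axis), of the 7 measured genes (x axis) without palmitate in blue and with palmitate in red, bars giving the scanner software's error of the difference, dotted lines marking 2-fold, open points where 1 of the arrays was not well above background and short lines the lower bound for those. Ctss and Cd74 lie beyond 2-fold in both conditions, while H2-Ab1 and H2-Eb1 lie within 0.3 of 0.

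The genotype term was also fitted over all 4 arrays with limma, in an additive model with palmitate that leaves 1 residual degree of freedom. The estimate was 2.98 (SE 0.185) for Ctss and 2.22 (SE 0.140) for Cd74, each with a limma adjusted p of 0.118. H2-DMb1 stood at 1.09 with an adjusted p of 0.150 by limma. No estimate is given for H2-Aa, which only the untreated Drp1LiKO array measured above background. At an adjusted p under 0.05 the term called 0 of 20525 genes, 0% of those tested, though 5353 had an unadjusted p under 0.05, so no member passed the test in this fit. Ctss and Cd74 passed when limma's prior spread followed intensity (adjusted p = 0.000184 and 0.000492, with 5341 of 20525 genes called), when the fit was limited to genes well above background on every array (0.0153 each, with 2594 of 16563 called), and after normexp background correction (0.0291 and 0.0400, with 1545 of 20525 called). H2-DMb1 passed in the first of these fits alone, with a limma adjusted p of 0.0288.

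Palmitate moved none of the measured class II genes by 2-fold. In control cells 0 of 6 measured genes passed, against 2.79% of 18703 genes at least 2-fold higher and 2.83% lower, and 5 of the 6 read lower with palmitate, with a median of -0.30 against 0.01 over all genes. In Drp1LiKO cells 0 of 7 passed, against 3.91% of 19676 genes higher and 3.09% lower, and 6 of the 7 read lower, with a median of -0.62 against 0.00, which was -0.29 over the 5 genes measured on both arrays and -0.17 after normexp. In control cells the median was -0.08 after normexp. The 2 responses rest on different arrays, but both compare the same pair of slides.

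Ctss read 0.30 ± 0.22 lower with palmitate in control cells and 0.80 ± 0.20 lower in Drp1LiKO cells. Cd74 read 0.26 ± 0.31 lower and 0.62 ± 0.21 lower. With the dim side at the array's floor, H2-Aa on the Drp1LiKO arrays was at least 1.1-fold lower and H2-DMa at least 1.76-fold lower with palmitate. H2-DMb1 was at least 1.5-fold lower in control cells. After normexp the log2 differences were smaller, -0.07 for H2-Aa, -0.17 for H2-DMa and -0.20 for H2-DMb1. The representing H2-Ab1 probe read higher with palmitate, by 0.26 in control cells and 0.23 in Drp1LiKO cells. In control cells the other H2-Ab1 probes differed by -0.12, -0.09 and 0.03 and the mean over all 4 by 0.02, and in Drp1LiKO cells they read 0.45, 0.29 and 0.34 higher. For Ctss the genotype difference with palmitate was 0.51 below that without, and for Cd74 it was 0.36 below, which no test could address with 1 array a group. The palmitate term of the limma fit gave adjusted p-values from 0.511 to 0.881 for the 7 genes and called 0 of 20525 genes, with 1996 at an unadjusted p under 0.05.

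The rest of the class II pathway was read from lists of its other chains, endosomal enzymes and regulators. Among 5 further class II chains, 4 fell short of the background flag on every array, including H2-Oa and H2-DMb2. H2-Ob, a chain of the H2-DM inhibitor H2-DO, read -6.97 in control and -7.21 in Drp1LiKO cells when untreated, and -2.60 in control and -6.77 in Drp1LiKO cells with palmitate. Its only signal well above background was thus that of control cells with palmitate.

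None of the other enzymes of endosomal antigen processing passed 2-fold. All 10 were measured on every array and 0 changed by 2-fold in any of the 4 comparisons, where 14.4% of all genes did so by genotype without palmitate, with a median genotype difference of 0.08 without palmitate and 0.21 with it. Ctsb, cathepsin B, had the largest difference, 0.64 and 0.61 higher in Drp1LiKO cells. Lgmn, the asparaginyl endopeptidase that starts invariant chain cleavage, was higher by 0.51 and 0.39. Ctsl, cathepsin L, which stands in for cathepsin S in thymic epithelium, differed by -0.07 and 0.17, and Ifi30, the lysosomal thiol reductase GILT, by 0.15 and 0.25. March1 and March8, ubiquitin ligases that lower surface class II, differed by -0.01 and -0.18 without palmitate.

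Of 7 genes of the factors that hold CIITA on the promoter, 0 changed by 2-fold in any comparison, beside the same 14.4% of all genes. Counts of 0 in lists this short lie near that share. Rfx5, the DNA-binding subunit of the X box complex, was well above background on the untreated arrays only and differed there by -0.28. With palmitate no genotype difference is given for it. Rfxank, a second subunit of that complex, was higher in Drp1LiKO cells by 0.55 and 0.48, and the Y box factors Nfya, Nfyb and Nfyc differed by 0.17, -0.18 and -0.06 without palmitate and by 0.02, -0.64 and -0.14 with it.

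On the route from interferon gamma to Ciita, Irf1, a factor that acts on the Ciita promoter, differed by -0.14 without palmitate and -0.04 with it. The receptor chains Ifngr1 and Ifngr2 differed by -0.13 and -0.07 without palmitate, and the kinases Jak1 and Jak2 by -0.19 and 0.17. Ifng itself was not well above background on any array.

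Costimulatory genes, which give the further signal a T cell needs beside class II, were measured for 4 of 7. Of these, 3 read at least 2-fold higher in Drp1LiKO than in control cells without palmitate and 2 with it, beside 8.81% and 7.24% of all genes. Cd83, a protein that stabilises class II at the surface, read -6.80, -3.20, -6.44 and -3.03 over the control, Drp1LiKO, control palmitate and Drp1LiKO palmitate arrays. It was well above background on both Drp1LiKO arrays and on neither control array, at least 2.89-fold and 2.21-fold higher. Cd274, the inhibitory ligand PD-L1, was higher by 1.38 and 1.35, and Cd80 by 1.04 and 0.94. Cd40 read lower, by 0.57 and 0.25, and Cd86, Icosl and Pdcd1lg2 fell short of the background flag on every array.

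MHC class I, which most nucleated cells carry, was read for comparison. All 13 of its genes were measured on every array, and without palmitate 1 was at least 2-fold higher and 1 at least 2-fold lower, beside 8.81% and 5.56% of all genes. The median difference was 0.29 without palmitate and 0.48 with it, and the difference from the class II genes was not tested. H2-K1 differed by 0.56 and 0.59, B2m, the light chain, by 0.59 and 0.57, and Tap1, a chain of the peptide transporter, by 0.94 and 0.92. Nlrc5, the class I counterpart of Ciita, was higher by 1.27 and 1.03, and Tap2 was lower by 1.14 without palmitate and higher by 0.38 with it.

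**Figure D3:**
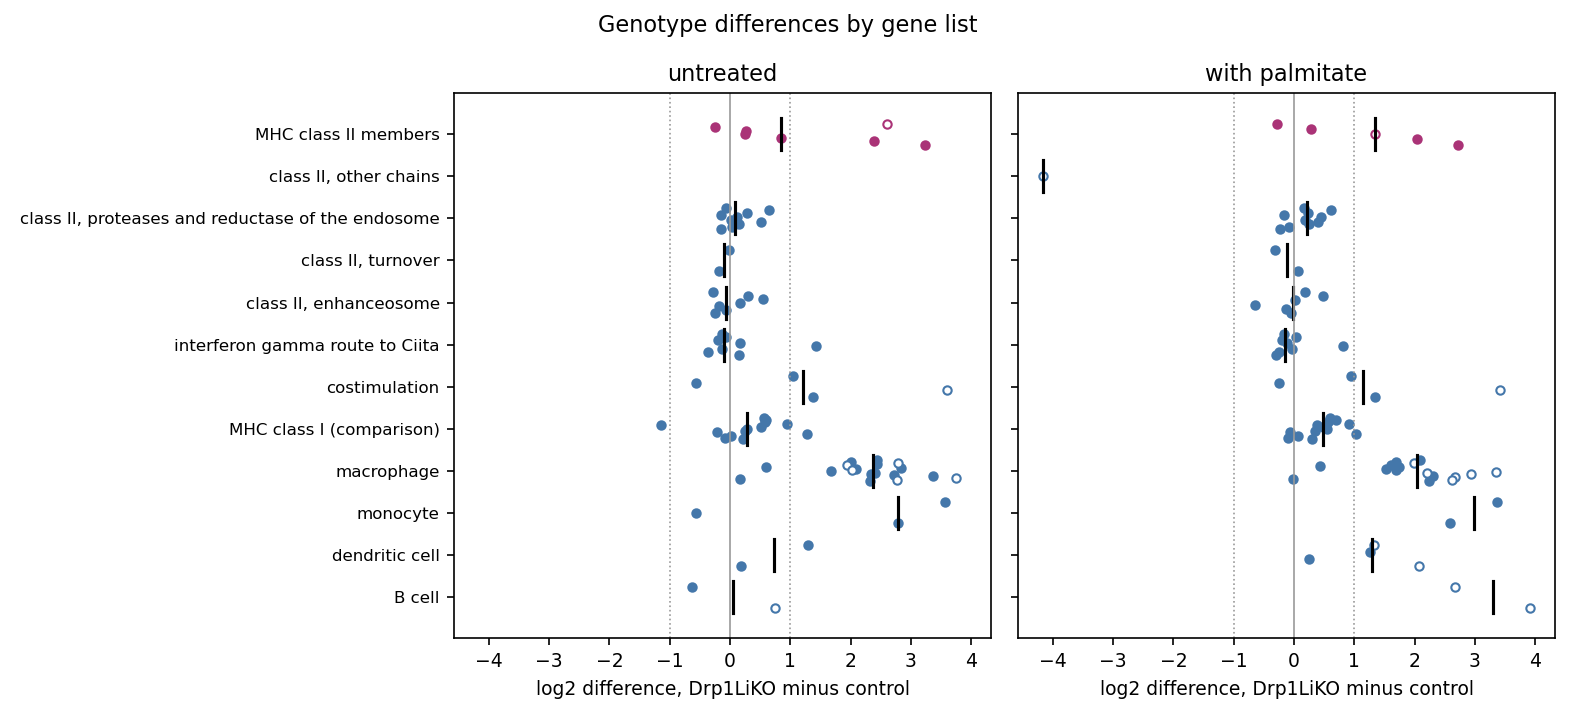
Log2 difference, Drp1LiKO minus control (x axis), of each measured gene of the 8 class II genes (purple) and of pathway and cell type marker lists (blue, y axis), without palmitate on the left and with palmitate on the right, with open points where 1 array was not well above background, black bars at the medians and dotted lines at 2-fold. The enzyme, enhanceosome and turnover lists sit within 2-fold of 0, and the class II, costimulation and macrophage lists reach past 2-fold.

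Markers of several liver cell types other than hepatocytes were high on the arrays where Ctss and Cd74 were high. In such cultures, more cells of a type and more RNA of that type per cell cannot be told apart. Of 20 macrophage markers 18 were well above background on some array, 13 in control and 18 in Drp1LiKO cells untreated, and with palmitate 10 in control and 16 in Drp1LiKO cells. Their summed level, in multiples of the 75th percentile, was 12.4, 43.3, 15.4 and 40.7 in that order, so both Drp1LiKO arrays were above both control arrays. Without palmitate 16 of the 18 were at least 2-fold higher in Drp1LiKO cells, with a median difference of 2.37, and with palmitate 14 of 16, with a median of 2.04, beside 8.81% and 7.24% of all genes. Cd74, at 2.40 and 2.04, lay close to these medians and Ctss, at 3.23 and 2.73, lay above them.

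Adgre1, a pan-macrophage receptor, was 2.44 and 2.10 higher, Cd68 2.01 and 1.69 higher, and the Kupffer cell marker Clec4f was well above background on the Drp1LiKO arrays only. The measured markers that did not pass 2-fold were Csf1r, which differed by 0.59 and 0.42, and Ptprc, by 0.16 and -0.02. The Kupffer cell marker Timd4 and the scavenger receptor Cd163 fell short of the background flag on every array. With palmitate the macrophage markers had a median of -0.52 in Drp1LiKO cells and 0.27 in control cells, beside -0.62 and -0.30 for the class II genes. Single macrophage markers moved further, from -3.58 to 2.77 in Drp1LiKO cells and from -3.05 to 3.59 in control cells. In Drp1LiKO cells 1 of 18 was at least 2-fold higher and 7 lower, beside 3.91% and 3.09% of all genes. In control cells 2 of 13 were higher and 4 lower, beside 2.79% and 2.83%. The part of the macrophage markers in the class II values was not tested.

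Markers of the other class II carriers were uneven. Of 11 dendritic cell markers, 7 fell short of the background flag on every array, among them Flt3, Itgax, Xcr1 and Clec9a. Irf8, a factor of dendritic cells and macrophages, was 1.29 and 1.27 higher in Drp1LiKO cells, and Siglech read between 5.76 and 6.11 on every array and weighed most in the list's summed level of 54.3, 61.8, 58.4 and 69.7. Of 8 B cell markers, 4 fell short of the background flag on every array, Cd79b among them, and the summed level was 0.117, 0.140, 0.110 and 0.321. Ms4a1 (CD20) and Cd79a were well above background on the Drp1LiKO palmitate array alone. The part of these cells in the class II values was not tested.

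The 9 sinusoidal endothelial markers summed to 1.98, 5.44, 2.01 and 3.85 over the control, Drp1LiKO, control palmitate and Drp1LiKO palmitate arrays. Without palmitate 6 of 9 were at least 2-fold higher in Drp1LiKO cells, beside 8.81% of all genes. The 3 measured of 5 monocyte markers summed to 0.962, 7.80, 1.05 and 7.86. Ly6c2 was 3.56 and 3.37 higher and Plac8 2.80 and 2.59 higher, while Chil3 differed by -0.56 without palmitate. Chil3 was not well above background on either palmitate array, and Ccr2 and Cx3cr1 were not on any array. The 7 measured of 8 stellate cell markers summed to 45.0, 60.7, 46.3 and 58.2, a sum in which Acta2, at 5.46 to 5.69 on every array, weighed most. Of the stellate markers, 5 of 7 measured were at least 2-fold higher in Drp1LiKO cells without palmitate, with a median of 3.41. With palmitate 4 of 6 were, with a median of 2.09, beside 8.81% and 7.24% of all genes in the 2 conditions. Dcn (decorin) was higher by 4.19 and 4.04. T cell markers summed to 2.99, 2.75, 3.58 and 3.11, a sum in which Cd4 weighed most. Cd3d, a chain of the T cell receptor complex, was well above background on the untreated Drp1LiKO array alone. It read there at least 10.2-fold higher than on the untreated control array. Of the 24 spots around it, 8 were also well above background on that array alone, against a mean of 0.61 over the array. Whether the Cd3d value is a local artefact was not tested. Cd3g, Cd8a and Trac fell short of the background flag on every array, and Cd3e, Cd4 and Lck differed by -0.09, -0.37 and -0.48 without palmitate. Hepatocyte markers summed to 1792, 1778, 1772 and 1829, with no common direction between the genotypes. Without palmitate 3 of 12 were at least 2-fold higher in Drp1LiKO cells and 0 lower, beside 8.81% and 5.56% of all genes. With palmitate 2 of 12 were higher and 0 lower, beside 7.24% and 4.21%. Whether any of these cells gave the class II signal was not tested.

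**Figure D4:**
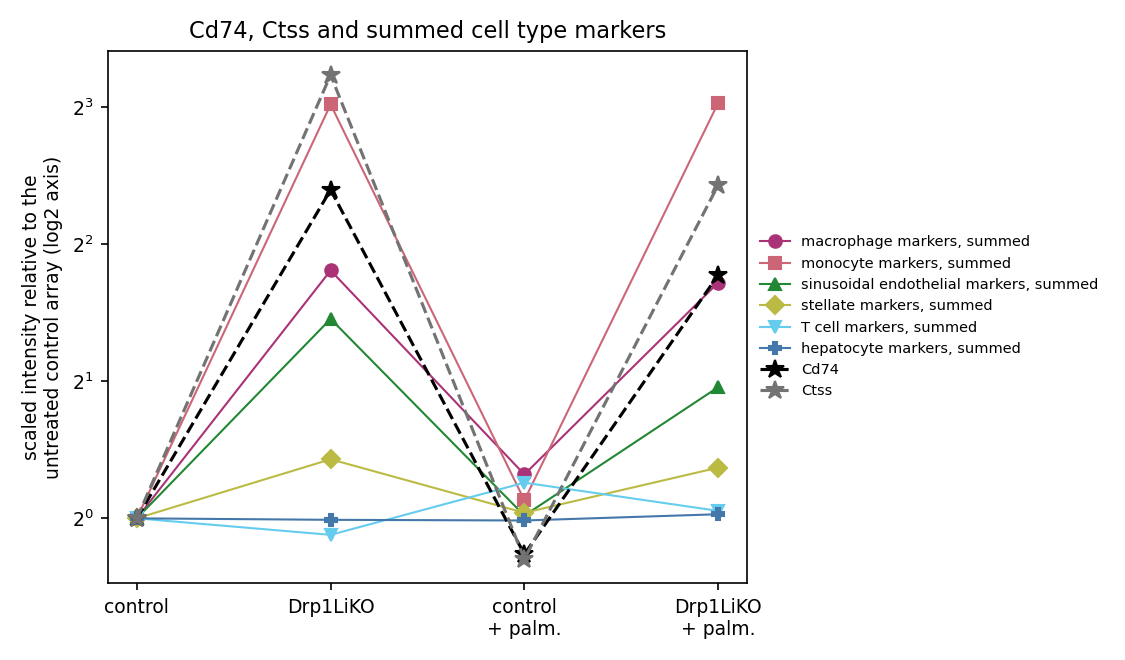
Scaled intensity relative to the untreated control array (y axis, log2 scale) on the 4 arrays (x axis, palm. = 200 μM palmitate) for Cd74 and Ctss (stars, dashed) and for the summed markers of 6 cell types (solid). Cd74, Ctss and the monocyte, macrophage and endothelial sums are high on both Drp1LiKO arrays and low on both control arrays, while the hepatocyte and T cell sums stay near the starting level.

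Genes whose pattern over the 4 arrays was most like the class II genes were ranked by the root mean square log2 distance, after each gene's own mean was removed, to the median pattern of the 4 members measured on every array (Ctss, Cd74, H2-Ab1 and H2-Eb1). Among 13240 genes the closest were Anpep (0.033), Kcnk6 (0.043), Rasip1 (0.045), Wfs1 (0.050), Notch4 (0.054), Irf8 (0.055), Gdap10 (0.063), Acacb (0.065), Gipc2 (0.072) and Faxc (0.082). The median pattern joins members that differed by over 2 log2 units with members that barely moved, and these 10 genes were 1.16 to 1.43 higher in untreated Drp1LiKO cells, a difference that none of the 4 members had. Taken alone, after values had been seen, Cd74 lay closest to Lilrb4 (0.066), Timp3 (0.084), Kdr (0.115), Cyp3a11 (0.116) and Inhbb (0.119), and Ctss to Col1a2 (0.126), Fhl1 (0.167), Ndrg4 (0.187), Fam71f2 (0.203) and Lrrc32 (0.233). Cd74 and Ctss were 0.388 apart, with 88 of 13243 genes closer to Cd74 and 21 closer to Ctss. These distances rest on 4 arrays that share 2 slides and 2 genotypes.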

How the data were processed

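Per the labels and the methods, RNA was amplified, labelled with 1 dye and hybridised to an Agilent mouse array of 60-base probes. The labels and the methods name different RNA extraction kits, and the submitters' notes name Feature Extraction 9.5.1.1 where the file headers give 10.7.1.1 and build mm9. The deposited scanner tables hold intensity, with background subtracted and no scaling between arrays. The authors also deposited processed intensity values, with the same distribution on each array, used as an alternative.

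Control and outlier spots were left out, repeat spots averaged, log2 taken and each array's 75th percentile of intensity subtracted. This hides a shift shared by most transcripts. Each gene was read from its brightest probe among those flagged above background on 1 or more arrays. A lower bound sets the brighter array against the lowest level well above background on the dim array, or the dim value if higher. It leaves out the error of the spot and holds only for this background subtraction, since normexp can give a smaller difference. No p-value was computed between single arrays. The additive model used limma 3.58.1 in R 4.3.3 (two-sided, Benjamini-Hochberg over all genes). It was also run on simulated data, and the outcome of that run is not reported here. Promoters were matched to RefSeq by gene identifier. Members, lists and tests were chosen with earlier results of these data known. The genes named are the members, the list genes, Dnm1l and the 10 nearest patterns, and some list genes are not reported here. The alternatives tried were other scalings, background corrections, filters and folds.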

Additional observations from a re-analysis of the deposited data

How the results depend on the processing

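No paired analysis was possible because each group holds 1 array and the labels give no replicate numbers, beyond the additive model itself, whose palmitate term sets the genotypes against each other within each slide. Leaving out an array leaves that model no residual degree of freedom. Ctss and Cd74 stayed at least 2-fold higher in Drp1LiKO cells under every scaling and background alternative, while the filters leave their differences as they were. The log2 differences were 2.78 to 3.23 and 1.52 to 2.40 without palmitate and 2.14 to 2.73 and 1.07 to 2.04 with it. H2-Aa without palmitate fell to 0.37 under normexp background correction and to 0.35 with values raised to the array's floor, and H2-DMb1 with palmitate to 0.41 under normexp, each below 2-fold. The cause was not tested, beyond the floor setting the dim side by construction. With no filter on dim probes, the count of members past 2-fold by genotype with palmitate was 5 instead of 3. The added ones were Ciita, which read lower in Drp1LiKO cells, and H2-Aa, which read higher, both at signals not well above background. For palmitate in Drp1LiKO cells the count of 0 became 1 under quantile normalization and in the authors' processed values (H2-Aa, -1.01 and -1.0), 1 without the filter (Ciita), and 4 at a fold of 1.5 (Cd74, Ctss, H2-Aa and H2-DMa). In control cells it became 1 at a fold of 1.5 (H2-DMb1). The share of all genes past the same fold was not computed under these settings, so these member counts have no background beside them. The limma genotype count of 0 became 3 with an intensity trend (5341 of 20525 genes called), 2 of 4 among genes measured on every array (2594 of 16563) and 2 with normexp (1545 of 20525), and stayed 0 under quantile normalization, while the palmitate count was 0 in every fit. Of 219 values recomputed for single genes, 207 kept their direction and side of the threshold and 0 reversed a called direction. Many of these values could not change, since the filter and fold settings reuse the same difference. The mean of all probes alters H2-Ab1 alone, the only member with several usable probes, and the floor alters dim values alone. Signal limits Ciita, H2-Aa and H2-DMa most, since their probes were near or below background.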
